A study of Cyanidioschyzon merolae strain 10D with 3 samples.

Results

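The loci described here are the nitrate assimilation genes of the red alga *Cyanidioschyzon merolae* and the MYB transcription factor linked to them. They were chosen by identifier, as the nitrate transporter CMG018C, the nitrate reductase CMG019C, the nitrite reductase CMG021C and MYB1, CMJ282C. All 4 were found among the 6823 loci of the files, and all 4 are protein-coding in the RefSeq table of assembly ASM9120v1. The files and that table give identifiers only, so the names are those by which the loci are known in this alga. The data were 3 RNA-seq libraries of polyadenylated RNA from late log-phase liquid cultures of strain 10D. The cultures were kept at 42°C under continuous light of 70 μmol and were shaken at 150 rpm, and the labels name no genetic change or treatment. All libraries are of 1 condition, so levels were compared between loci and not between treatments. The nitrogen source of the medium is not given in the sources used here, and its part in the levels was not tested.

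Nitrate assimilation brings nitrate into the cell through a transporter of the plasma membrane, reduces it to nitrite with nitrate reductase in the cytosol, and reduces nitrite to ammonium with nitrite reductase in the plastid. Ammonium is then built into glutamine. In algae and plants the genes of this route are commonly low when ammonium is at hand and are induced when it is scarce. In *C. merolae*, MYB1 is known as a nuclear factor that binds the promoters of nitrogen assimilation genes and is needed for their induction when nitrogen runs out.

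In these cultures the nitrate genes and their regulator lay far apart. The 3 nitrate loci had a mean FPKM (mapped fragments relative to the length of the locus and to the size of the library) between 0.635 and 4.89, whereas MYB1 had 209. In each library, between 3.39% and 5.70% of nuclear loci ending in C, the protein-coding class, were lower than a nitrate locus, and between 87.5% and 89.5% were lower than MYB1. With FPKM as deposited, each library gave the same order of the 4 loci. CMG021C overlaps other loci, however, and its order against CMG018C depends on how reads were divided.

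The depth behind these values differed between libraries. The deposited upper limit was taken as 2 SD above the FPKM, and the square of FPKM over SD was read as the number of fragments. Summed over the 4955 loci free of overlap, this gave 1.30e+07, 2.88e+06 and 2.98e+06 fragments in libraries 1, 2 and 3, so low loci are measured best in library 1. Libraries 2 and 3 were closer to each other than counting error allows. The mean chi-square of their fragments was 0.272 over 4381 loci, where independent sequencing of one RNA gives 1, and it was 21.7 between libraries 1 and 2. They were therefore averaged and counted as 1 sample, which leaves n = 2 for each mean and SD. No exact test over libraries can pass 0.05 with so few, because the smallest p of a two-sided sign-flip test is 0.5 with 2 libraries and 0.25 with 3. The labels call the libraries biological replicates. The limits cover the counting of fragments only and leave out differences between cultures.

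The nitrate transporter CMG018C lies on chromosome 7 from 49588 to 51291 (build of the *C. merolae* Genome Project, v3, as in the files), and overlaps no other annotated locus. Its product carries nitrate across the cell membrane. FPKM of CMG018C was 5.45 in library 1 (limits 4.65 to 6.25), 4.12 in library 2 (2.64 to 5.60) and 4.52 in library 3 (2.97 to 6.06). The limits of the 3 libraries overlapped. The mean was 4.89 ± 0.799 (SD, n = 2), and the median nuclear locus ending in C stood 12.1 times higher. Its values rest on 186, 31.0 and 34.2 implied fragments, so the locus was detected in every library although it was low. A limit of 3 fragments, which a count of 0 allows, was used for detection. Of the 4803 nuclear loci ending in C it ranked 4529th from the top in library 1, 4556th in library 2 and 4548th in library 3.

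The nitrate reductase CMG019C was the lowest of the 4 loci. It spans 52254 to 55106 on chromosome 7, overlaps no other locus, and encodes the enzyme that reduces nitrate to nitrite with a molybdenum cofactor. FPKM of CMG019C was 0.808 in library 1 (limits 0.588 to 1.03), 0.472 in library 2 (0.115 to 0.829) and 0.454 in library 3 (0.111 to 0.797), with 53.9, 7.0 and 7.0 implied fragments. Libraries 2 and 3 therefore give its level only roughly. The value of library 1 lies within the limits of library 2 and just above those of library 3. The mean was 0.635 ± 0.244 (SD, n = 2), against which the median nuclear locus ending in C was 93.1 times higher. It ranked 4608th, 4640th and 4637th of 4803 in libraries 1, 2 and 3.

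The nitrite reductase CMG021C spans 56346 to 58382 on chromosome 7 and encodes the enzyme that reduces nitrite to ammonium. FPKM of CMG021C was 1.61 in library 1 (limits 1.20 to 2.01), 1.08 in library 2 (0.289 to 1.86) and 1.07 in library 3 (0.296 to 1.84). The mean was 1.34 ± 0.379 (SD, n = 2), and the ranks were 4575, 4616 and 4610 of 4803. These values are uncertain because CMG021C overlaps 2 other loci. CMG020Z covers 1080 of its 2037 bases and CMG022C lies wholly inside it over 909 bases, which leaves 321 bases to CMG021C alone. The sources used here do not state that reads were counted by strand, so reads of these loci cannot be told apart in the shared bases.

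The inner locus CMG022C was listed at 0 in library 1 but at 2.40 FPKM in library 2 and 2.21 in library 3. CMG020Z was steadier, at 5.51, 5.10 and 5.35 FPKM. To bound the nitrite reductase, the fragments of all 3 overlapping loci were given to CMG021C, as the sum of FPKM times length over the length of CMG021C. It would then reach 5.72, 5.95 and 6.04 FPKM in libraries 1, 2 and 3, which is 1.05, 1.44 and 1.34 times CMG018C. Even so, no more than 5.75% of nuclear loci ending in C would lie below it in any library. In library 1 the bound takes CMG022C at its listed 0, which at an overlapping locus can be a failed estimate. Fragments lost in that way would not be in the bound of library 1. For the fragments as listed, the place of CMG021C among the lowest loci thus does not depend on how reads were divided. Its order against the transporter does.

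MYB1, CMJ282C, lies on chromosome 10 from 747123 to 748691 and overlaps no other locus. Its product is a DNA-binding protein with MYB repeats. FPKM of MYB1 was 207 in library 1 (limits 202 to 212), 208 in library 2 (198 to 219) and 212 in library 3 (202 to 223). The 3 libraries overlapped within their limits, and the mean was 209 ± 2.15 (SD, n = 2). The values rest on 7051, 1578 and 1645 implied fragments. MYB1 stood 3.59, 3.45 and 3.52 times above the median nuclear locus ending in C, which was 57.7, 60.5 and 60.4 FPKM in libraries 1, 2 and 3. It ranked 504th, 602nd and 590th of 4803.

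**Figure D1:**
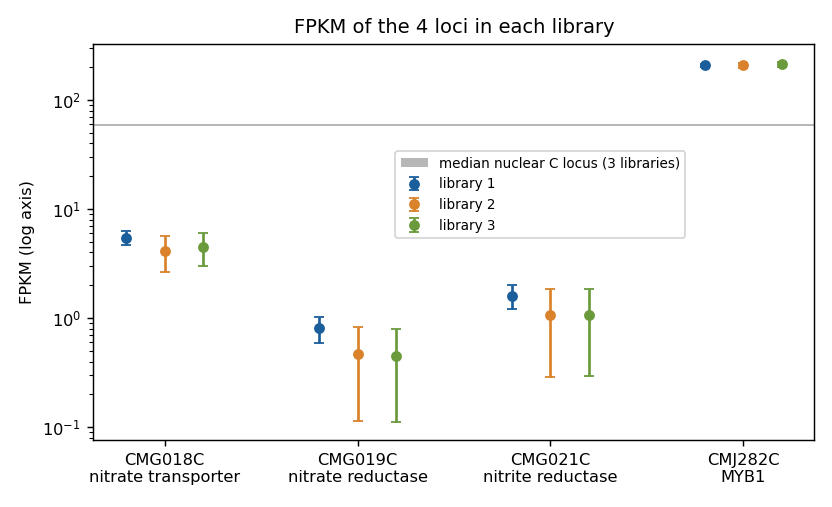
FPKM (log axis) of the 4 loci in libraries 1, 2 and 3. Points are the deposited FPKM, bars its deposited lower and upper confidence limits, and the grey line the median of nuclear loci ending in C, 57.7 to 60.5 FPKM. The 3 nitrate loci lie below the line in every library, from 0.454 to 5.45 FPKM, and MYB1 lies above it, from 207 to 212.

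The control genes of the study give a scale for these levels. CmEIF4A (CMK028C), a translation initiation factor, had 353 ± 11.4 FPKM (SD, n = 2), which is 1.69 times MYB1. Cm60S (CMS262C), a protein of the large ribosomal subunit, had 583 ± 165 FPKM (SD, n = 2). CmMADS (CMA095C), a MADS box gene chosen by the study as a target of the repressive mark H3K27me3, had 14.9 ± 2.52 FPKM (SD, n = 2). MYB1 was thus lower than both housekeeping genes in every library, and the 3 nitrate loci were lower than CmMADS in every library. CmMADS overlaps 1 other locus, and its values are uncertain for that reason.

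Between the members, differences were calculated on the scale of log2(FPKM + 1), which understates the differences of low loci. MYB1 exceeded CMG018C by 5.16 ± 0.21 (SD, n = 2), CMG021C by 6.50 ± 0.25 and CMG019C by 7.01 ± 0.23 on this scale. As plain ratios of FPKM, MYB1 was 38.0, 50.6 and 47.0 times CMG018C and 257, 442 and 468 times CMG019C in libraries 1, 2 and 3. Confidence limits of MYB1 and of each nitrate locus were separate in all 3 libraries.

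Within the cluster the transporter was the highest locus in each library. FPKM of CMG018C was 6.74, 8.73 and 9.96 times that of CMG019C in libraries 1, 2 and 3, and their limits were separate in all 3. On the log2(FPKM + 1) scale the difference CMG019C minus CMG018C was -1.83, -1.80 and -1.92 in libraries 1, 2 and 3. Its mean was -1.85 ± 0.02 (SD, n = 2), and -2.79 with a pseudocount of 0.1. This SD is narrower than the range of the 3 libraries, because libraries 2 and 3 were averaged first. CMG018C was also 3.39, 3.83 and 4.24 times CMG021C with separate limits, although the bound above takes away this order. With FPKM as deposited, the reductases were close neighbours in the order. CMG021C had 1.99, 2.28 and 2.35 times the FPKM of CMG019C, and their limits were separate in library 1 only. In libraries 2 and 3 the deposited values do not differ beyond counting error. At its bound of 5.72, 5.95 and 6.04 FPKM, however, CMG021C would lie above the upper limit of CMG019C in every library. The closeness of the reductases thus also depends on how reads were divided. Each of these FPKM is already scaled to the length of the locus, from 1569 bp for MYB1 to 2853 bp for CMG019C.

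The position of the nitrate loci among all nuclear loci ending in C depends on the loci listed at 0. Of the 4803 loci, 117 had a mean of 0, and at overlapping loci a 0 can be a failed estimate. By the mean of the libraries, 249 loci (5.18%) were lower than CMG018C, 195 (4.06%) lower than CMG021C and 168 (3.50%) lower than CMG019C. Restricted to the 3989 loci without overlap, 134 loci (3.36%) were lower than CMG018C, 88 (2.21%) lower than CMG021C and 64 (1.60%) lower than CMG019C. CMG021C overlaps other loci and is not itself one of the 3989, so its own value stays uncertain under this restriction. For MYB1 this restriction changed little, from 88.5% to 87.6% of loci lower. All 3 nitrate loci had a mean FPKM below 10, as did 6.70% of the nuclear loci ending in C. More than 3 implied fragments in every library were found at 98.2% of the nuclear loci ending in C without overlap, CMG018C, CMG019C and MYB1 among them. Of the 184 such loci with a mean FPKM below 10, 113 (61.4%) were detected in this way. The 3 nitrate loci held 0.00145%, 0.000831% and 0.000882% of the summed FPKM of nuclear loci ending in C in libraries 1, 2 and 3, against 0.0382%, 0.0305% and 0.0310% for MYB1 alone.

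**Figure D2:**
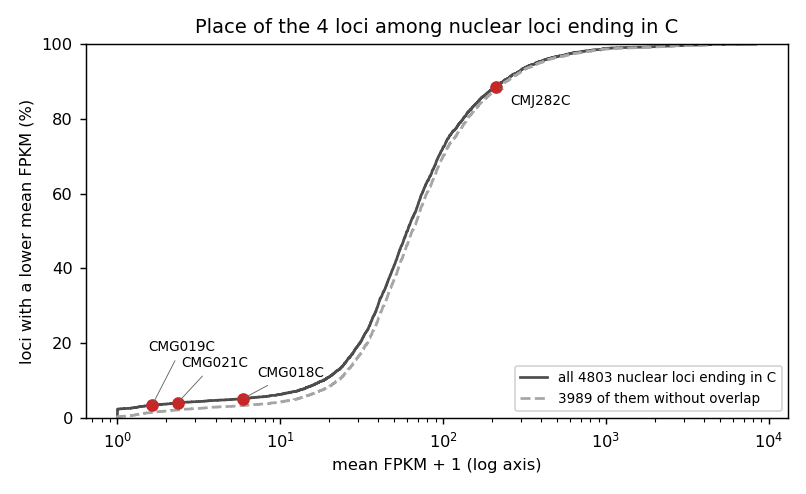
Percentage of nuclear loci ending in C with a lower mean FPKM, against mean FPKM + 1 (log axis). The solid line is drawn over all 4803 loci, the dashed line over the 3989 without overlap, and red points are the 4 described loci. The nitrate loci sit on the flat lower tail, at 3.50% to 5.18%, and MYB1 on the upper shoulder, at 88.5%.

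The chromosome 7 loci were then set against their surroundings. From the start of CMG018C to the end of CMG021C the cluster spans 8795 bp, and its lower end is 49.6 kb from position 1 of the chromosome. CMG018C and CMG019C are 962 bp apart and CMG019C and CMG021C 1239 bp apart, both less than the median of 1502 bp between neighbouring nuclear loci ending in C. The space is wider on the outer sides. The next such locus below is CMG016C, 3237 bp away, and the next one above that does not overlap is CMG023C, 2652 bp from CMG021C.

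Both outer neighbours were higher than the whole cluster in each library. FPKM of CMG016C was 17.3, 14.3 and 14.5, and its mean of 15.8 ± 2.04 (SD, n = 2) was 3.24 times that of CMG018C. FPKM of CMG023C was 40.7, 31.4 and 34.2, with a mean of 36.7 ± 5.60 (SD, n = 2), which is 7.52 times that of CMG018C. In the gap below the transporter, the Z locus CMG017Z had 7.97, 6.77 and 6.99 FPKM. Thus every annotated locus from CMG017Z to CMG022C, coding or not, had a mean below 10 FPKM, and the next coding loci on both sides were higher. No role is given in the files for any of these neighbours.

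The other close neighbours were mostly higher too. CMG015C had 42.9 ± 0.952 FPKM (SD, n = 2), CMG014C 31.4 ± 1.20 and CMG012C 31.7 ± 5.26, the last with an overlapping locus. On the far side CMG025C had 13.3 ± 1.83 FPKM and CMG027C 26.1 ± 1.89. The exceptions were CMG011C, with 1.16, 0.577 and 0.555 FPKM and without overlap, and CMG028C, which overlaps CMG029T and was listed at 0, 19.4 and 14.3. The mean of CMG011C, 0.865 FPKM, lay between those of the reductases, and the 4 coding loci between it and CMG018C had means of 15.8 to 42.9 FPKM.

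Over 10 nuclear loci ending in C on each side, the mean of log2(FPKM + 1) was 4.88 in library 1, against 1.64 for the 3 nitrate loci. The cluster thus differed from these 20 neighbours by -3.23, and the same difference was -3.79 in library 2 and -3.73 in library 3. Over the independent libraries it averaged -3.50 ± 0.37 (SD, n = 2). Among the neighbours, CMG022C and CMG028C overlap other loci and were listed at 0 in library 1 but not in libraries 2 and 3. These entries lower the neighbour mean of library 1, which was 4.88 against 5.10 with libraries 2 and 3 averaged, and so add to the SD. The nitrate loci themselves were higher in library 1, at 1.64 against 1.34, and this adds to the SD as well. Against neighbours without overlap the difference was -4.02. Of the 20 neighbours, 18 had a higher mean FPKM than CMG018C, and none was lower than CMG019C. With 5 neighbours on each side the difference was -2.23, where the low loci CMG011C, CMG022C and CMG028C make up 3 of 10 neighbours in place of 3 of 20. The median FPKM of the 20 neighbours was 34.9. Loci along a chromosome are not replicates, and no p-value was calculated.

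**Figure D3:**
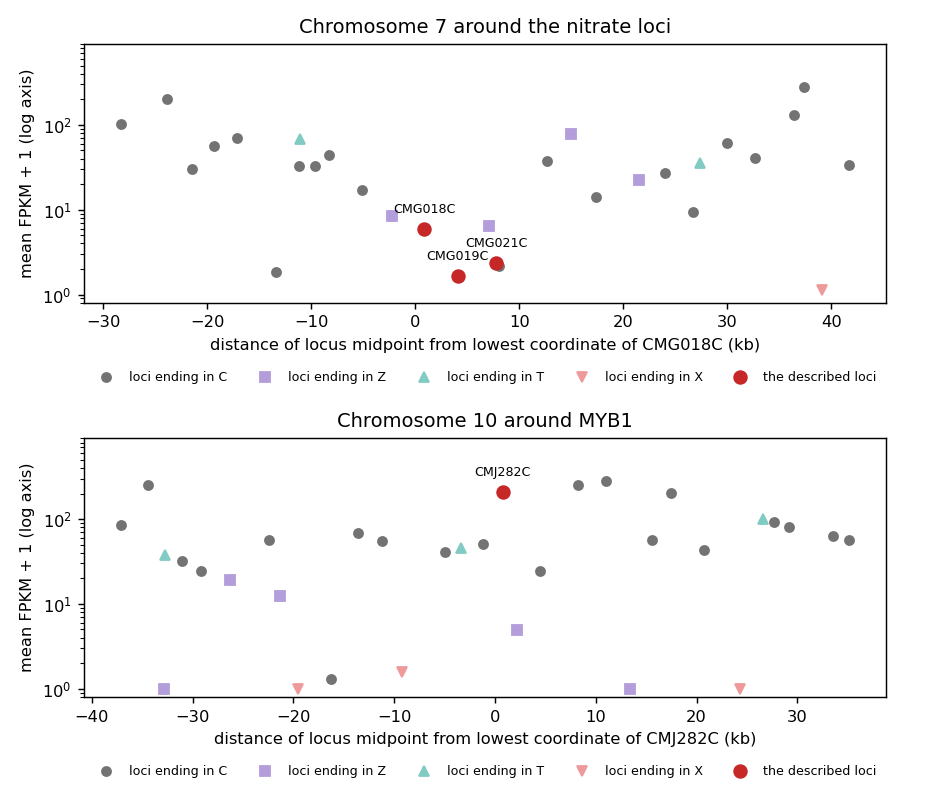
Mean FPKM + 1 (log axis) of all annotated loci around the nitrate cluster on chromosome 7 and around MYB1 on chromosome 10, against the distance of the locus midpoint from the lowest coordinate of CMG018C or CMJ282C (kb). Red points are the described loci, other symbols mark the last letter of the identifier. The nitrate loci form a trough between CMG016C at 15.8 and CMG023C at 36.7 FPKM, whereas MYB1 at 209 FPKM exceeds the next locus on either side.

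MYB1 was higher than 17 of its 20 nearest nuclear loci ending in C, 10 on each side. The next nuclear loci ending in C are CMJ281C, 649 bp below it with 50.4 ± 4.68 FPKM (SD, n = 2), and CMJ284C, 2054 bp above it with 23.2 ± 5.44. CMJ283Z, which begins 299 bp past MYB1, had only 4.82, 2.84 and 3.13 FPKM. The difference of MYB1 from its 20 neighbours was 1.88, 1.83 and 1.83 on the log2(FPKM + 1) scale in libraries 1, 2 and 3. High loci were nonetheless near. CMJ285C had 250.4 ± 21.2 FPKM (SD, n = 2) and CMJ286C 281 ± 19.1, both above MYB1. CMJ286C overlaps 1 other locus, and its values are uncertain for that reason. CMJ289C had 159, 238 and 250 FPKM, below MYB1 in library 1 and above it in libraries 2 and 3. Its mean of 202 was below that of MYB1. Of the other close neighbours, CMJ276C, CMJ277C, CMJ279C and CMJ288C lay between 39.7 and 67.7 FPKM, where CMJ279C overlaps another locus. CMJ275C was at 0.625 FPKM in library 1 and listed at 0 in libraries 2 and 3. Across chromosome 10, MYB1 was the 32nd highest of 250 nuclear loci ending in C.

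A run of neighbouring low loci was uncommon in the nuclear genome. In windows of 3 consecutive nuclear loci ending in C, the mean log2(FPKM + 1) of CMG018C, CMG019C and CMG021C was 1.49, against a median of 5.91 over all 4763 windows. With FPKM as deposited, 12 windows (0.252%) were lower. With CMG021C at the bound given above, an alternative chosen after seeing the data, the mean of the window was 2.01 and 23 of the 4760 windows without CMG021C (0.483%) were lower. Of the 12 windows lower as deposited, 8 lie within 20 kb of the first base or the last annotated locus of a chromosome and 4 lie further inside. One of the 4 is the adjoining window of CMG019C, CMG021C and CMG022C, and the other 3 are on chromosome 14. In 9 windows every locus had a mean below 10 FPKM, 6 of them further than 20 kb from an end. Neighbouring windows share loci, and only 5 of the 12 lower windows are free of overlapping loci. This order is a description, because the nitrate loci were chosen with earlier results of these data known.

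Library 1 was set against libraries 2 and 3 at each member, beside loci of similar length. FPKM of CMG018C was 1.26 times as high in library 1 as in the mean of libraries 2 and 3, CMG021C 1.5 times and CMG019C 1.75 times, whereas MYB1 was 0.986 times. The counting interval of the ratio of library 1 to library 2 (95%) was 0.904 to 1.93 for CMG018C and 0.779 to 3.76 for CMG019C, so neither difference was detectable at this depth. For MYB1 it was 0.942 to 1.05. No such interval is given for CMG021C, where the limits do not give the number of fragments.

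A ratio of 1.5 or more in favour of library 1 was found at 2.84% of the 4645 nuclear loci ending in C above 0, and at 19.6% of the 179 among them with a mean below 10 FPKM. It was reached by CMG019C and CMG021C. Among loci without overlap, of a length within 25% of CMG019C and with a mean below 10 FPKM, the median ratio was 1.17, with quartiles of 1.03 and 1.34 over 18 loci. For those like CMG018C the median was 1.08 over 48 loci, with quartiles of 0.909 and 1.33. Low loci of similar length were thus slightly higher in library 1 as well. A difference between cultures and a difference between library preparations cannot be told apart here.

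**Figure D4:**
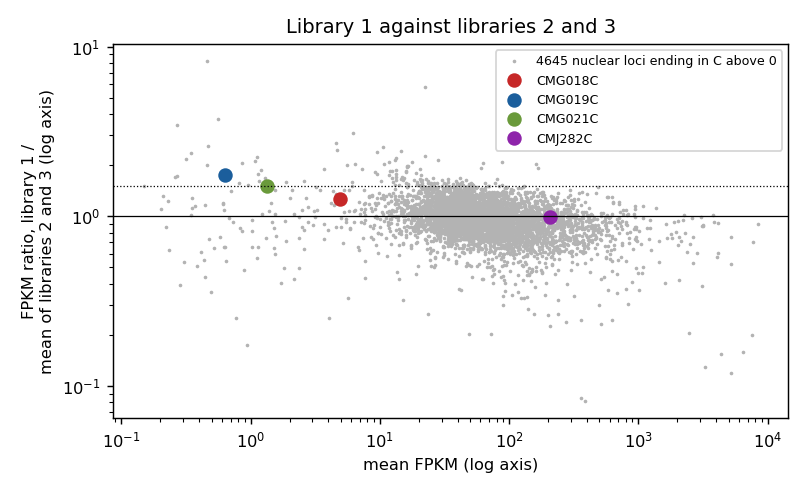
Ratio of FPKM in library 1 to the mean of libraries 2 and 3 (log axis) against mean FPKM (log axis). Grey points are the 4645 nuclear loci ending in C above 0, coloured points the 4 described loci, and the solid and dotted lines ratios of 1 and 1.5. CMG019C lies at 1.75, CMG021C at 1.5, CMG018C at 1.26 and MYB1 at 0.986.

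Loci with the most similar values were sought as the 2 smallest Euclidean distances in log2(FPKM + 1) over the 3 libraries. CMC115C and CME001C were closest to CMG018C, at distances of 0.18 and 0.19. CMN333C and CMT166C were closest to CMG019C, at 0.17 and 0.21, and CMC018C and CME106C were closest to CMG021C, at 0.23 and 0.24. For MYB1 they were CML029C and CML116C, at 0.03 and 0.05. Within a distance of 0.25 there were 4, 4 and 3 loci for CMG018C, CMG019C and CMG021C and 52 for MYB1. None of the 8 named loci lies on chromosome 7 or 10. With 3 libraries of 1 condition, the distance compares levels and cannot show a shared response.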

How the data were processed

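TruSeq libraries were sequenced from both ends on a HiSeq instrument. The authors used Galaxy for read quality (FastQC) and for mapping and quantification (Tuxedo programs), with gene models of v3 of the *C. merolae* Genome Project. They deposited 1 Cufflinks table per library, which holds FPKM and a lower and an upper limit for each locus. Versions and the treatment of reads that map to several loci are not given in the sources used here. Replicates were not pooled, and all loci had the status OK. Starts were counted from 1, although Cufflinks counts them from 0. Fragments were implied from the limits. At loci without overlap that had fewer than 50, they were within 0.05 of a whole number at 66.4% to 73.2%. FPKM are not counts, and no count model was fitted. Ranks were taken among the 4803 nuclear loci ending in C, all of which are in the RefSeq table. A pseudocount of 1 was used for log2 differences.

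Members, lists and the rules for named loci (the members, loci overlapping or next to them, the closest loci by distance) were chosen with earlier results of these data known. The control genes of the study, CMG017Z and the windows of 3 loci were added after values were seen. A list of further nitrogen genes had been foreseen from RefSeq product names, but the table used here holds none, so it was not analysed. Sequences were not used here. Implied fragments, the mean chi-square, percentiles, the search for a low window and a median log2 difference were tried on simulated data. The simulated limits were made by the same rule that was then inverted, so this could not test the deposited limits. Other calculations were not tried in this way. Alternatives were other reference sets, pseudocounts, scalings and neighbours, and each library left out in turn. Calculations were done in Python 3.11.15 (numpy 2.4.6, pandas 2.3.3) and drawn with matplotlib 3.10.9.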

Additional observations from a re-analysis of the deposited data

How the results depend on the processing

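No paired analysis was possible because all libraries are of 1 condition. Of 101 alternative values, 79 moved by less than a set spread. This was the spread between libraries, or the counting error for the differences of library 1 from libraries 2 and 3. No alternative changed the order of MYB1 and the nitrate loci. Among loci without overlap (a set that leaves out CMG021C itself), the percentage lower than CMG018C, CMG019C and CMG021C was 3.36, 1.60 and 2.21. It was 1.47, 0 and 0.303 among loci whose mean FPKM reached 1 (a set that leaves out CMG019C itself). Among all nuclear loci except those ending in X it was 7.63, 5.51 and 6.16, and MYB1 had 90.1 there. With the fragments of the overlapping loci, an alternative chosen after seeing the data, CMG021C had 5.50. With a pseudocount of 0.1, the log2 difference of CMG019C from CMG018C was -2.79, of CMG021C from CMG018C -1.81, of CMG021C from CMG019C 0.98 and of MYB1 from the mean of the cluster 6.93. With single libraries left out, the difference of CMG019C from CMG018C ranged from -1.88 to -1.82. The difference of the cluster from its neighbours was -2.23 with 5 on each side, -4.11 against all such loci of chromosome 7, -4.02 against neighbours without overlap and -3.95 with a pseudocount of 0.1. The difference of library 1 from libraries 2 and 3 at MYB1 turned from -0.021 to 0.046 on the log2 scale with libraries scaled to a common median. The first value is within the counting error of 0.040 and the second is slightly beyond it. The cause of these shifts was not tested beyond the construction of each alternative. The alternatives for the list of nitrogen genes were not run.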

Other observations

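The 3 interior windows on chromosome 14 that were lower than the nitrate cluster began at CMN165C, CMN169C and CMN192C. The first of these had a mean log2(FPKM + 1) of 0.23 over CMN165C, CMN169C and CMN170C, and no locus in it exceeded 0.298 FPKM. These loci overlap no other locus. The window that begins at CMN192C had 0.96, with at most 2.48 FPKM. The nitrate cluster was not the lowest run of loci inside a chromosome by this measure.

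On chromosome 7, 16 of 173 nuclear loci ending in C had a mean FPKM below 10. CMG019C was the 6th lowest, CMG021C the 11th and CMG018C the 15th, and the 4 lowest, CMG127C, CMG159C, CMG100C and CMG174C, were listed at 0 in the mean of the libraries.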
